A study of Mus musculus with 6 samples.

Results

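The genes described here are 10 enzymes of the glycerolipid backbone: Gpd1, Gpd2, Gpam, Agpat1, Agpat2, Agpat3, Lpin1, Lpin2, Plpp1 and Plpp3. They were taken by symbol from a count table of 25664 genes, all 10 were found, and all 10 passed the filter on low counts that 11011 genes passed. The libraries were made from alveolar macrophages of mice, the phagocytes that live in the airspaces of the lung, sorted from lavage fluid. Of the 6 libraries, 3 came from mice of the genotype Vav1cre/+ Pex5fl/fl, called Pex5-deficient, and 3 from mice of the genotype Pex5fl/fl, called control. Both groups carry the floxed Pex5 allele and differ by the Cre allele, whose Vav1 promoter drives the recombinase throughout the blood lineages, not in macrophages of the lung alone. PEX5 is the import receptor of peroxisomes, which it supplies with most of their matrix enzymes. Gpd1 and Plpp3 were selected on their difference in CPM between these groups, and the other 8 for their place in the pathway, with their values known. The labels give no age, sex or strain, and nothing in them states that each sample was a separate mouse, so the spread between libraries may in part be technical.

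Glycerolipids are built on glycerol-3-phosphate. GPD1 makes it in the cytosol from the glycolytic intermediate dihydroxyacetone phosphate, and GPD2 oxidises it back at the inner mitochondrial membrane, so that the pair also carries reducing equivalents from the cytosol to the respiratory chain. Acyltransferases then add a pair of fatty acids to give phosphatidate (GPAM for the first, the AGPAT enzymes for the second), and lipins remove the phosphate to give diacylglycerol, the precursor of triglycerides and of the main phospholipids. The PLPP enzymes also dephosphorylate phosphatidate, and those at the cell surface break down the signalling lipids lysophosphatidate and sphingosine-1-phosphate. Macrophages of the airspaces take up and turn over the phospholipids of surfactant.

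Sequence upstream of these genes was looked at first. RefSeq promoter entries (GRCm38.p6) matched 8 of the 10 symbols, with 13 start sites; Gpd1 and Plpp1 had no entry. The 250 bases before the start are shown for Plpp3 and Lpin1, the members with an entry whose levels differed most between the groups. That of Plpp3 is chr4:105157097-105157346 on the plus strand and that of Lpin1 is chr12:16610967-16611216 on the minus strand, both written in the direction of the gene. Capitals mark AGGTCA, a single unit of the paired sites that nuclear receptors such as PPAR and LXR bind, GAGGAA, the core of PU.1 sites, and TATAAA, on either strand.
Plpp3: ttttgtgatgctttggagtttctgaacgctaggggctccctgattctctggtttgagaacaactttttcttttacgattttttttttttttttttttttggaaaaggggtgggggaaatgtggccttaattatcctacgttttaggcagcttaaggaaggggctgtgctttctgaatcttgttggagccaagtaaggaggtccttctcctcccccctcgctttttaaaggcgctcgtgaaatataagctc
Lpin1: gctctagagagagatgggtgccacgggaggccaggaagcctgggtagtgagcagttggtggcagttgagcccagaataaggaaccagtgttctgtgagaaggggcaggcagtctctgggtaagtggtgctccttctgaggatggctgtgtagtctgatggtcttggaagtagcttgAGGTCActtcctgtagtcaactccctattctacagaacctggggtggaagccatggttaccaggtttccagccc
The Plpp3 sequence held none of these 3 motifs, and 42.4% of its bases were G or C, against a median of 52.4% over 32851 promoter entries. The Lpin1 sequence held 1 AGGTCA, 74 bases before the start, and 54.8% of its bases were G or C. AGGTCA stood in 3 of the 13 upstream windows (of Agpat1, Gpam and Lpin1) and in 14.0% of all windows of the same length. GAGGAA stood in 6 of the 13 and in 23.3% of all, and TATAAA in 0 of the 13 and in 12.4% of all. The full peroxisome proliferator element, AGGTCANAGGTCA, was in 0 of the 13 and in 0.033% of all, and the E-box CACGTG was in 1 of the 13, of Lpin2, and in 6.02% of all. Pairs of AGGTCA at other spacings were not searched for. In a window of Gpam and a window of Lpin2, the bases just after the start were in no annotated transcript of the gene. Those windows held the AGGTCA of Gpam, the CACGTG, and a GAGGAA each. A match is a run of letters and was not tested for binding, and a window without a match says only that the letters are not there.

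The 6 libraries held 13325609 to 19413838 counts. Pex5-deficient replicate 2 stood apart: the 50 genes with the highest mean level held 30.4% of its counts and 38.3% to 42.1% of those of the other libraries, its scaling factor was 1.34, against 0.90 to 1.03, and it alone held over 1 CPM (counts scaled to a common library total) of summed haemoglobin and Alas2 reads (6.79, against 0 in every control library). All 10 markers of alveolar macrophages fixed for the check were tested, with 3 lower and 0 higher, and their summed level was 51628 to 71343 CPM in control and 43111 to 68392 in Pex5-deficient libraries. Most of that sum was Chil3, with a mean of 40545 CPM in control and 48413 in Pex5-deficient libraries. Every other marker of the list had a lower mean in the Pex5-deficient group. The 3 called lower were Siglecf (617 to 234 CPM), Krt79 (820 to 350) and Ear1 (4311 to 802). Log2 fold changes without Pex5-deficient replicate 2 are given for Plpp3, Gpd2, Lpin1 and Plpp1.

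Gpd1 was lower in Pex5-deficient macrophages, and Plpp3 was higher. Control replicates 1 to 3 held Gpd1 at 33.9, 29.9 and 26.3 CPM, and Pex5-deficient replicates 1 to 3 at 3.60, 7.73 and 6.56. Every Pex5-deficient library was far below every control library. The means were 30.03 ± 3.81 CPM in control and 5.96 ± 2.13 in Pex5-deficient libraries (SD, n = 3 per group), a 5.04-fold lower level, and the log2 fold change was -2.30 ± 0.24 (SE), with a 95% interval from -2.85 to -1.75. Gpd1 lies on chromosome 15 from 99717515 to 99725005 (GRCm38), and 6.88% of the 100-base words of its longest transcript also occur in Gm16537, a gene on the opposite strand that is not analysed here. No source used here states whether the counting used strand, so reads of the pair cannot be told apart.

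Plpp3, a lipid phosphate phosphatase of the cell surface, measured 2.58, 6.47 and 1.89 CPM in the control libraries (replicates 1 to 3) and 31.8, 15.2 and 31.4 in the Pex5-deficient ones. The lowest Pex5-deficient library, replicate 2, was the one that stood apart, and it was still above the highest control library. The means were 3.65 ± 2.47 and 26.2 ± 9.48 CPM, a 7.17-fold higher level in the Pex5-deficient group, with a log2 fold change of 2.80 ± 0.45 and a 95% interval from 1.78 to 3.82. Plpp3 lies on chromosome 4 from 105157347 to 105232764, and it shared 0% of its 100-base words with other genes. Its log2 fold change was 3.09 when Pex5-deficient replicate 2 was left out. It was 3.55 when control replicate 2, the control library with the most Plpp3, was left out.

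These values are a description. The set was named for Gpd1 and Plpp3 because of this very contrast, so no p is given for the 10 genes. In the fit across all genes by edgeR's quasi-likelihood test (Benjamini-Hochberg adjusted p below 0.05) 2 of the 10 were called, Gpd1 lower and Plpp3 higher, beside 3.25% of all genes tested, and nothing is read from that share. Gpd1 was called without any 1 of the 6 libraries. Plpp3 was not called when Pex5-deficient replicate 1 (log2 fold change 2.64) or control replicate 1 (2.61) was left out. With Pex5-deficient replicate 2 left out, Lpin1 was called as well, which made 3. For 7 of the 10 genes the groups did not overlap, 3 higher and 4 lower, beside 26.1% of all genes. Scaling libraries by their totals alone shifted the median over all genes by 0.17 (log2). Gpd2, Lpin1 and Lpin2 then overlapped and Plpp1 no longer did. The share of all genes under that scaling was not computed, so no count is given for it. The median log2 fold change of the 10 was 0.012, beside -0.00077 over all genes.

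**Figure D1:**
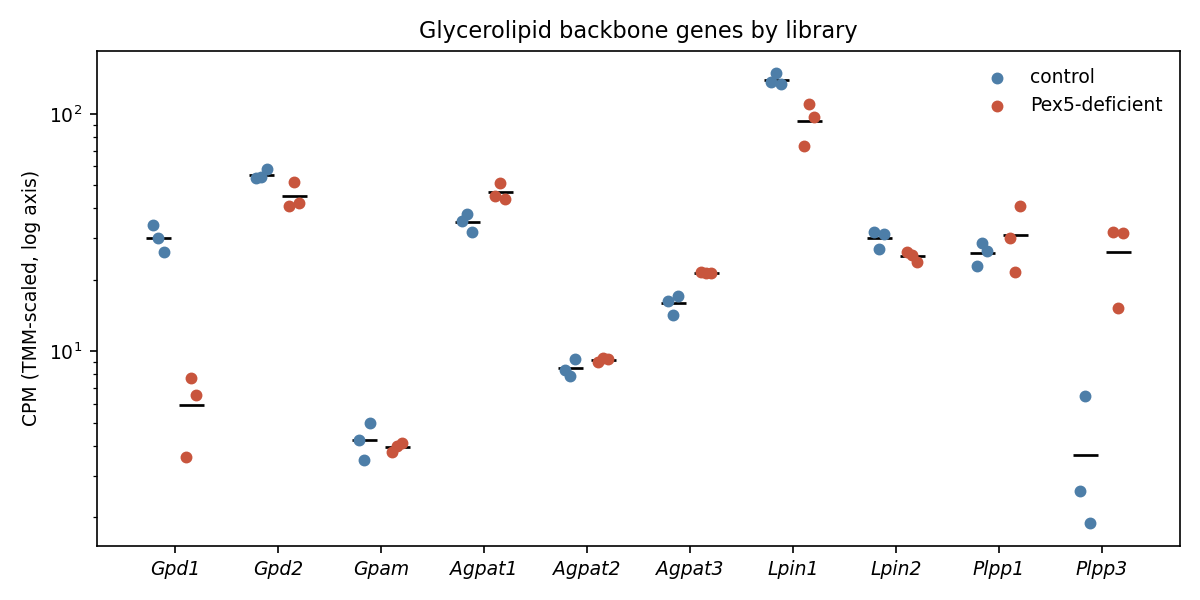
Level of each gene in each library, in CPM on a log axis, with control in blue, Pex5-deficient in red and a black bar at the group mean (n = 3). Gpd1 and Plpp3 show the widest gaps, with group means of 30.03 against 5.96 CPM and 3.65 against 26.2 CPM.

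Fibroblasts and endothelial cells are known for abundant Plpp3, and adipocytes for abundant Gpd1, so markers of these cells were set beside the values. Of 6 fibroblast markers 0 reached 1 CPM in any library, and their summed level was 0 to 0.211 CPM in control and 0 to 0.075 in Pex5-deficient libraries, with Col3a1, Dcn and Lum at 0 in every library. Of 6 endothelial markers 0 reached 1 CPM, and their sums were 0.158 to 0.349 CPM in control and 0.150 to 0.309 in Pex5-deficient libraries. The adipocyte markers Adipoq, Cfd and Lep were at 0 in every library, and the sum of the 6 markers was 3.16 to 5.34 CPM in control and 2.63 to 11.7 in Pex5-deficient libraries, nearly all of it Plin1. Neutrophil markers differed in part. Of 10 markers 4 were tested, and 2 were called higher by edgeR (S100a8 and Cxcr2) and 0 lower. The other tested ones, Mmp8 (log2 fold change 0.90) and Csf3r (-0.52), were not called. At 0 in every library were 5 markers (S100a9, Ly6g, Retnlg, Mmp9 and Camp), while S100a8 had 83 to 722 counts per library. Whether the way genes were counted set these 5 to 0 was not tested. The sums were 77.7 to 101.8 CPM in control and 133 to 180.4 in Pex5-deficient libraries. The sum of 8 epithelial markers, most of it Cdh1, was 40.8 to 54.9 CPM in control and 67.0 to 73.8 in Pex5-deficient libraries, with 0 of the 8 called. Of the 8, 3 were tested. Cdh1 had the higher mean in the Pex5-deficient group (44.1 to 69.6 CPM), and Sftpc (0.91 to 0.48) and Scgb1a1 (1.04 to 0.66) the lower. The part of these shifts in the levels of the 10 genes was not tested, and in bulk RNA fewer cells of a type and less RNA per cell cannot be told apart.

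Gpd2, the mitochondrial partner of Gpd1 (chromosome 2 from 57237635 to 57370719), measured 53.6, 54.1 and 58.5 CPM in the control libraries (replicates 1 to 3) and 40.8, 51.8 and 42.1 in the Pex5-deficient ones. The Pex5-deficient libraries were lower without overlap, replicate 2 lying close to control, and the log2 fold change was -0.30 ± 0.12 (95% interval -0.57 to -0.035). Without Pex5-deficient replicate 2 the log2 fold change was -0.41, and Gpd2 was called in neither fit. Levels of different genes can be compared only per length, here as CPM per kilobase (kb) of annotated exon. That length joins the exons of every annotated transcript of a gene, whether or not it is expressed here. Shares and orders between genes depend on this choice. On that scale Gpd1 held 58.3%, 55.1% and 49.8% of the sum of Gpd1 and Gpd2 in control replicates 1 to 3, and 16.3%, 24.8% and 25.6% in Pex5-deficient replicates 1 to 3. Gpd1 was thus near parity with Gpd2 in control and a minority in every Pex5-deficient library, and a share of this kind does not depend on how libraries were scaled. The sum of the pair was 18.6 ± 0.93 CPM per kb in control and 8.87 ± 1.55 CPM per kb in Pex5-deficient libraries. Gpd1l, the other cytosolic form, differed little (log2 fold change -0.029), and Gpd1 was 56.0% ± 5.14 of the sum of both cytosolic forms in control and 21.0% ± 9.53 in Pex5-deficient libraries.

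The acyltransferases that make phosphatidate differed far less. Gpam, the mitochondrial enzyme that adds the first fatty acid, lies on chromosome 19 from 55067268 to 55127238 and was the scarcest of the 10 per length, with 3.49 to 4.996 CPM in control and 3.75 to 4.13 in Pex5-deficient libraries. The groups overlapped, and the log2 fold change of -0.093 ± 0.21 changed sign to 0.068 with scaling by library totals and to 0.064 without control replicate 3. Its 95% interval ran from -0.58 to 0.39. Gpam made up 4.60% ± 0.74 of the summed Gpam, Gpat3 and Gpat4 level per length in control and 4.31% ± 0.23 in Pex5-deficient libraries, and that sum was 13.8 ± 0.24 and 13.8 ± 0.25 CPM per kb.

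Agpat1 and Agpat3, acyltransferases that add the second fatty acid, were both higher without overlap between groups. Agpat1 (chromosome 17 from 34604262 to 34613449) measured 35.4, 37.7 and 31.9 CPM in the control libraries (replicates 1 to 3) and 45.2, 51.3 and 43.6 in the Pex5-deficient ones, a log2 fold change of 0.42 ± 0.11 (95% interval 0.17 to 0.67). Agpat3 (chromosome 10 from 78269178 to 78352489) was at 16.3, 14.2 and 17.1 CPM in control and at 21.7, 21.3 and 21.4 in Pex5-deficient libraries, a log2 fold change of 0.43 ± 0.12 (0.17 to 0.70). The Pex5-deficient libraries lay closer together for Agpat3 than for any other of the 10 genes. Neither gene was called. Agpat2 (chromosome 2 from 26593057 to 26604417), loss of which causes lipodystrophy, was at 7.90 to 9.25 CPM in control and 8.99 to 9.33 in Pex5-deficient libraries, and these overlapped (log2 fold change 0.12 ± 0.15, interval -0.22 to 0.45). Per length, Agpat4 was the main AGPAT transcript, with 61.04% ± 2.21 of the sum of Agpat1 to Agpat5 in control and 59.5% ± 3.39 in Pex5-deficient libraries. The sum of the 5 genes was 47.04, 51.8 and 49.0 CPM per kb in control replicates and 61.9, 59.03 and 60.8 CPM per kb in Pex5-deficient replicates, higher in each Pex5-deficient library than in any control library.

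**Figure D2:**
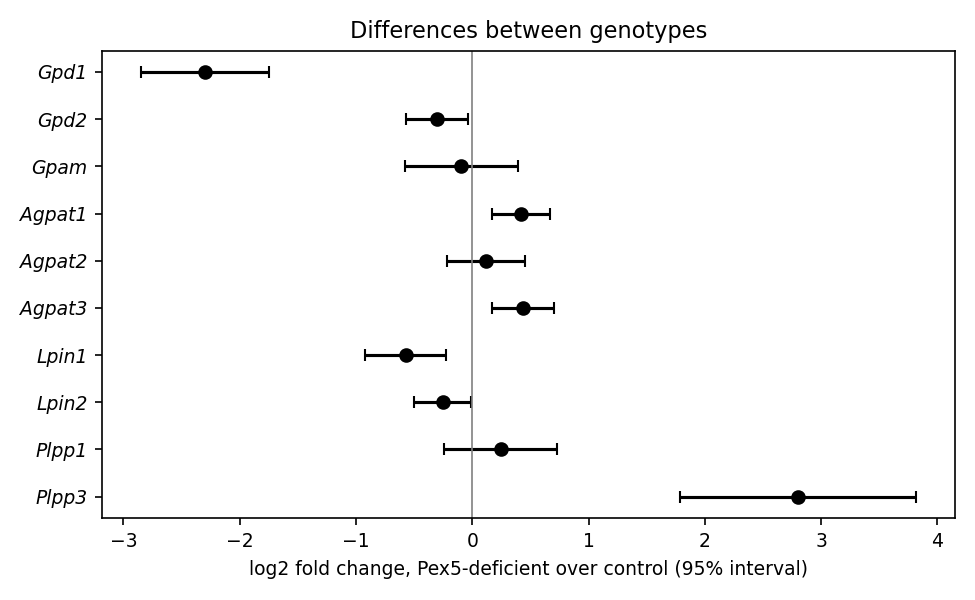
Log2 fold change of each of the 10 genes, Pex5-deficient over control, with its 95% interval from the fit across all genes. Gpd1 (-2.30) and Plpp3 (2.80) lie far from 0, and the other 8 lie between -0.57 and 0.43.

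Lipins take the phosphate from phosphatidate. Lpin1 (chromosome 12 from 16535669 to 16610966), the gene of the 10 with the most reads, measured 136, 148 and 133 CPM in the control libraries (replicates 1 to 3) and 73.1, 110.4 and 97.1 in the Pex5-deficient ones. All Pex5-deficient libraries were lower, replicate 2 the least so, and the log2 fold change was -0.57 ± 0.15 (95% interval -0.92 to -0.23). Lpin1 was not called, but it was without Pex5-deficient replicate 2 (-0.70) and with DESeq2 (-0.57), and with scaling by library totals the log2 fold change was -0.37. Lpin2 (chromosome 17 from 71182560 to 71249817) was at 31.8, 27.0 and 31.3 CPM in control and at 26.1, 25.5 and 23.8 in Pex5-deficient libraries, with groups that did not overlap by a narrow margin (log2 fold change -0.26 ± 0.11, interval -0.50 to -0.011). Per length, Lpin1 held 85.4% ± 1.74 of the sum of both lipins in control and 82.1% ± 3.59 in Pex5-deficient libraries, and the sum went from 16.9 ± 0.60 to 11.7 ± 1.92 CPM per kb. The third lipin, Lpin3, had 0 counts in every library.

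Plpp1, a phosphatase of the same family as Plpp3 (chromosome 13 from 112800792 to 112867894), measured 22.8, 28.6 and 26.4 CPM in the control libraries (replicates 1 to 3) and 30.1, 21.5 and 40.8 in the Pex5-deficient ones. The Pex5-deficient values enclosed the control values, with the lowest in replicate 2 and the highest in replicate 3, and the log2 fold change was 0.24 ± 0.21 (95% interval -0.24 to 0.73). It was -0.017 without Pex5-deficient replicate 3 and 0.47 without Pex5-deficient replicate 2, and Plpp1 was called in neither fit. Plpp1 is uncertain, because 23.6% of its 100-base words also occur in Mtrex, an RNA helicase gene on the opposite strand. Mtrex is listed in the table by its older symbol Skiv2l2, and it had a log2 fold change of -0.17 ± 0.18. Of the other 7 genes, Gpd2 shared 1.996% of its words with other genes, Agpat1 0.096%, and the rest 0%.

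Set side by side per length, the phosphatases shifted in their proportions. Plpp3 was 3.997%, 7.19% and 2.72% of the sum of Plpp1, Plpp2 and Plpp3 in control replicates 1 to 3, and 23.9%, 16.6% and 21.7% in Pex5-deficient replicates 1 to 3. Plpp1 was the largest part in all 6 libraries, with 63.2% ± 5.62 in control and 44.6% ± 5.42 in Pex5-deficient libraries, while Plpp2 held 32.2% ± 3.38 and 34.7% ± 6.85. In Pex5-deficient replicate 2 the lead was narrow, with 42.2% for Plpp1 and 41.2% for Plpp2. All these shares, and the sum, carry the uncertainty of Plpp1 from the words it shares with Mtrex. The sum of the 3 genes was 20.4, 28.5 and 22.01 CPM per kb in control replicates and 42.2, 29.05 and 45.9 CPM per kb in Pex5-deficient replicates. Pex5-deficient replicate 2 was only just above control replicate 2.

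**Figure D3:**
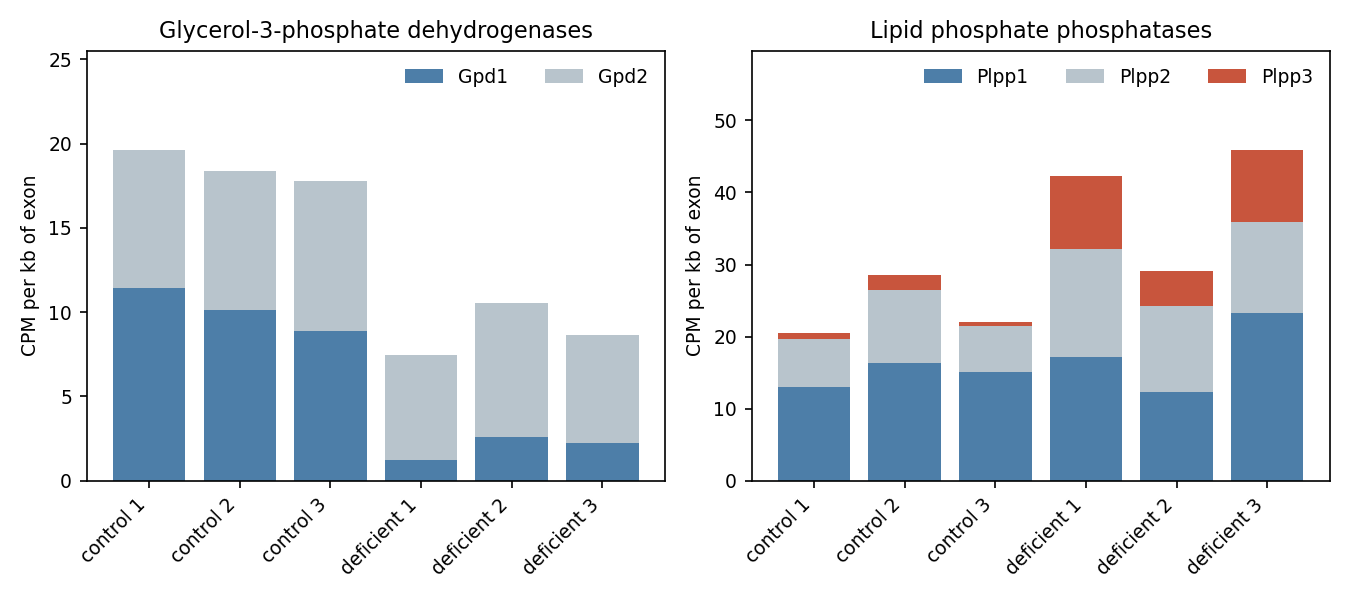
Level per kb of exon in each library, stacked for Gpd1 and Gpd2 on the left and for Plpp1, Plpp2 and Plpp3 on the right, with bars from 0. Gpd1 shrinks to 16.3% to 25.6% of its pair in Pex5-deficient libraries, and Plpp3 grows to 16.6% to 23.9% of the phosphatases.

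The order of the 10 genes by level per length differed between the groups mainly for Gpd1 and Plpp3. In control libraries the order was Plpp1 (14.8 ± 1.68 CPM per kb), Lpin1 (14.4 ± 0.80), Agpat1 (11.7 ± 0.97), Gpd1 (10.1 ± 1.29), Gpd2 (8.45 ± 0.41), Agpat2 (3.99 ± 0.32), Lpin2 (2.45 ± 0.22), Agpat3 (2.04 ± 0.20), Plpp3 (1.15 ± 0.78) and Gpam (0.636 ± 0.11). The neighbours Plpp1 and Lpin1, Agpat1 and Gpd1, Gpd1 and Gpd2, Agpat3 and Plpp3, and Plpp3 and Gpam overlapped in their ranges over libraries. In Pex5-deficient libraries Gpd1 stood at rank 9 (2.01 ± 0.72 CPM per kb), where it had been at rank 4, and Plpp3 at rank 4 (8.28 ± 3.001), where it had been at rank 9. Neither of these places was separate from its neighbours, since Plpp3 overlapped with Lpin1 at rank 3 and Gpd2 at rank 5, and Gpd1 with Lpin2 at rank 8. Plpp1 was at rank 1 in both orders, overlapping with Agpat1 at rank 2 in the Pex5-deficient libraries, and Gpam was at rank 10 in both. The rank of Plpp1 is uncertain for the words it shares with Mtrex.

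Likeness to Gpd1 and to Plpp3 was measured over the 6 libraries as the root mean square difference of log2 CPM, each gene centred on its own mean, among 8297 genes with a mean of at least 5 CPM. Closest to Gpd1 were Fabp1 (0.39), a carrier of fatty acids, then Ccdc80 (0.43), Txnip (0.43), Fn1 (0.43) and Klk8 (0.43), with Fabp1 going from 409 ± 142 to 71.6 ± 18.1 CPM. Closest to Plpp3 were Rgcc (0.23), a regulator of the cell cycle, then Igf1 (0.26), Cd200r2 (0.31), Wfdc17 (0.35) and Epas1 (0.37). Rgcc went from 36.4 ± 24.9 to 282 ± 92.7 CPM and Epas1, a hypoxia-inducible factor, from 16.9 ± 7.20 to 100.7 ± 18.2 CPM. The distance to the nearest gene was smaller for Plpp3 than for Gpd1. This likeness rests mostly on the difference between the groups and is a description.

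The other genes of the pathway were listed by role and not for how they moved. Earlier results of these data were known when the lists were made, so their counts of calls are a description. Of 95 such genes 72 were tested, and 5 rose and 2 fell by edgeR's quasi-likelihood test, where 1.74% of all genes were called higher and 1.51% lower. The median log2 fold change of the 72 was 0.039. Chpt1, which joins choline to diacylglycerol to make phosphatidylcholine, rose from 8.79 ± 2.22 to 26.3 ± 5.30 CPM, from single values of 11.3, 7.39 and 7.63 to 27.8, 20.3 and 30.6 (log2 fold change 1.58 ± 0.21, edgeR adjusted p = 0.00865). Chpt1 shared 5.58% of its words with Sycp3 on the opposite strand, which had 3 to 18 counts per library. Aqp9, a channel for glycerol and water, rose from 2.13 ± 0.49 to 8.80 ± 3.31 CPM (2.02 ± 0.33, edgeR adjusted p = 0.0174), while the glycerol channels Aqp3 and Aqp7 had 0 counts. Got1, the cytosolic transaminase of the malate-aspartate shuttle, which like the GPD1 and GPD2 pair moves reducing equivalents into mitochondria, rose from 16.5 ± 1.34 to 27.4 ± 4.27 CPM (0.73 ± 0.14, edgeR adjusted p = 0.0307). Nr1h3, which encodes the oxysterol receptor LXR-alpha, rose 2.33-fold (edgeR adjusted p = 0.00314).

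The list of enzymes that make or use phosphatidate and diacylglycerol (kinases, lipases, the last acyltransferases of triglyceride synthesis, CDP-diacylglycerol synthases and the phospholipase D family) held 19 tested genes. Of these 1 rose and 2 fell, beside 1.74% called higher and 1.51% lower over all genes. Dgkz, a kinase that turns diacylglycerol into phosphatidate, rose from 49.7 ± 1.82 to 72.4 ± 7.84 CPM (log2 fold change 0.54 ± 0.11, edgeR adjusted p = 0.0347), and Dgkg, another kinase of that family, fell from 13.6 ± 2.30 to 7.53 ± 0.87 CPM (-0.85 ± 0.18, edgeR adjusted p = 0.0381). Pld4, a phospholipase D family member known as an exonuclease of endolysosomes, fell from 493 ± 54.6 to 306 ± 1.09 CPM (-0.69 ± 0.13, edgeR adjusted p = 0.0311). Its relative Pld3, the gene of this list with the highest CPM, had a log2 fold change of -0.17 ± 0.24. The calls of Chpt1 and Nr1h3 held whichever library was left out. Aqp9 was no longer called without Pex5-deficient replicate 1 (edgeR adjusted p = 0.0548), control replicate 1 (0.0862) or control replicate 3 (0.0636). Got1, Dgkg and Pld4 each lost theirs without any 1 library other than Pex5-deficient replicate 2, and Dgkz without Pex5-deficient replicate 1 or any 1 control library, with edgeR adjusted p from 0.0666 to 0.133 in these fits. With scaling by library totals Dgkz (edgeR adjusted p = 0.056), Dgkg (0.333) and Pld4 (0.0804) were not called.

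The genes with the highest CPM in the lists of glycerol-3-phosphate supply, the malate-aspartate shuttle and phospholipid head groups were not called. Aldoa, the glycolytic aldolase that releases dihydroxyacetone phosphate, had a log2 fold change of -0.21 ± 0.24, Mdh2, the mitochondrial malate dehydrogenase, of -0.033 ± 0.12, and Cept1, which like Chpt1 joins head groups to diacylglycerol, of 0.0022 ± 0.20. The remaining lists held few calls. The other acyltransferases had 0 calls among 4 tested genes, with Agpat4 at 81.3 ± 6.65 CPM in control and 97.5 ± 7.71 in Pex5-deficient libraries. The other phosphatases had 0 among 6, with Plpp2 at 12.7 ± 3.48 and 21.8 ± 2.58 CPM (log2 fold change 0.77 ± 0.19, edgeR adjusted p = 0.0744). Plpp2 was called higher with DESeq2, with scaling by library totals, with no filter on low counts, and without control replicate 2. Signalling through lysophosphatidate and sphingosine-1-phosphate, the lipids that PLPP3 breaks down, had 0 calls among 6 tested genes of 14. Of the 6, 2 were higher without overlap and 0 lower, beside 13% and 13.1% of all genes. They were S1pr2, at 27.0 ± 0.38 CPM in control and 37.8 ± 6.18 in Pex5-deficient libraries (log2 fold change 0.48 ± 0.13), and S1pr4 (0.48 ± 0.23). S1pr2 was called when Pex5-deficient replicate 2 was left out. Enpp2, the main source of extracellular lysophosphatidate, had 0 counts in every library, as did Lpar3 and S1pr3, and Lpar1, Lpar2, S1pr1, S1pr5 and Sphk1 reached at most 0.155 CPM. The lysophosphatidate receptors Lpar4, Lpar5 and Lpar6 were tested, and their groups overlapped. Lpar5 was at 7.32 ± 1.10 CPM in control and 7.58 ± 1.01 in Pex5-deficient libraries, Lpar4 at 1.15 and 1.38, and Lpar6 at 0.81 and 0.84. Sphk2, a kinase that makes sphingosine-1-phosphate, had the highest CPM of that list, with 47.4 ± 3.15 in control and 44.5 ± 6.98 in Pex5-deficient libraries. A count of 0 allows up to 3 counts, which is 0.155 to 0.225 CPM at these depths, for counting error only. Of 9 tested transcriptional regulators 1 was called, Nr1h3. Pparg had a log2 fold change of 0.068 ± 0.11 (edgeR adjusted p = 0.795), and Ppara, the receptor of the same family best known from liver, had 0 counts.

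**Figure D4:**
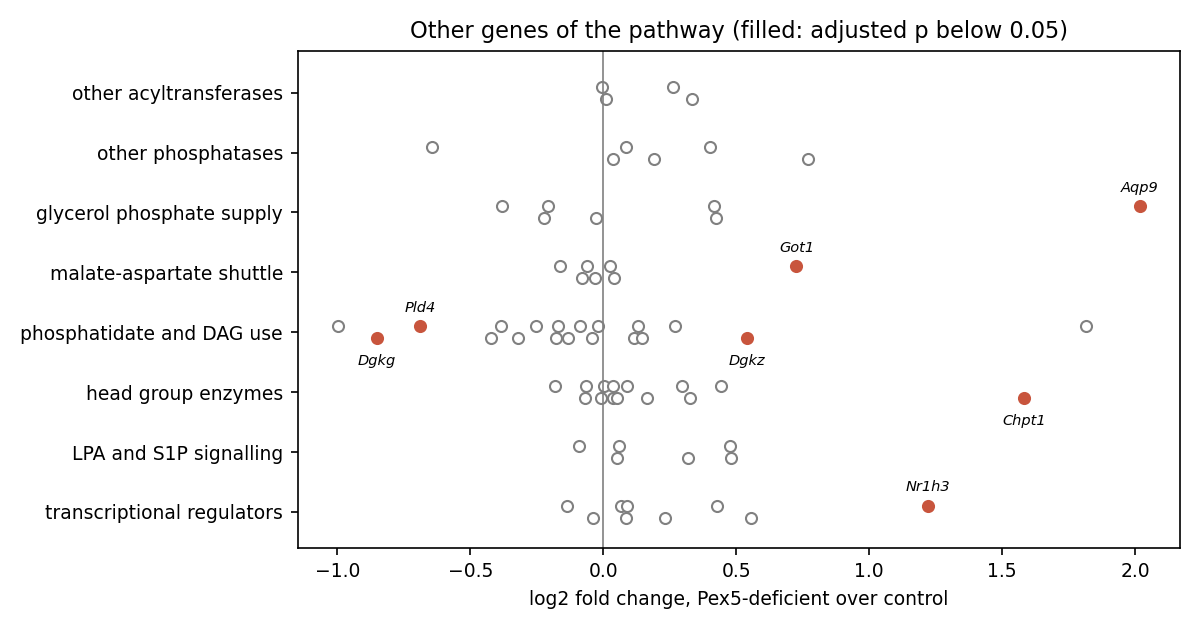
Log2 fold change, Pex5-deficient over control, of the 72 tested genes of the 8 pathway lists, 1 circle per gene and 1 row per list, with the 7 called genes filled and named. Aqp9 (2.02) and Chpt1 (1.58) lie farthest to the right of the called genes and Dgkg (-0.85) farthest to the left.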

How the data were processed

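RNA of sorted macrophages was made into libraries with a stranded SMART-Seq kit and sequenced as single-end reads, per the labels' protocols. The counts per gene are those the authors deposited, and the submitters' processing notes name DESeq2 1.40.1, R 4.3.2, featureCounts and STAR, and mm10 and GRCm38.p5 as builds. The strand setting, annotation and version of the counter: not given in the sources used here. No molecular identifiers are named, so limits cover counting error only.

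Genes passing edgeR's filterByExpr (minimum count 10, total 15) were tested with its quasi-likelihood test (edgeR 4.0.16, R 4.3.3), two-sided, on TMM-scaled libraries, with Benjamini-Hochberg adjustment over all genes and a threshold of 0.05. Levels are CPM on the scaled libraries, and marker levels are CPM of the library totals. Markers of monocytes and interstitial macrophages were also computed, and their result is not reported here. Standard errors come from the F statistics. Lengths, coordinates and shared words come from GENCODE mouse release 21, in which all 105 genes of the pathway lists and the members were found. The 10 genes and all lists were chosen with earlier results of these data known. Named are all 10 genes, the called genes and the gene with the highest mean CPM of each pathway list (others are named by their level of 0 or near it, seen first), and the 5 genes most like Gpd1 and Plpp3 without predicted genes. S1pr2 and S1pr4 are named for groups that did not overlap, also seen first, and Lpar4, Lpar5 and Lpar6 as the tested receptors of lysophosphatidate. Alternatives were DESeq2 1.42.0, limma-voom (limma 3.58.1), other scalings and filters, a block on replicate number, and leaving out each library. Same-numbered libraries did not deviate together. The steps were tested on simulated data.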

Additional observations from a re-analysis of the deposited data

How the results depend on the processing

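Counts of called genes moved with the setting more than directions did. Over all genes 358 were called, 741 with DESeq2, 83 with the replicate number as a block (replicate block), and 76 to 523 when 1 library was left out. Of the 10 genes 2 were called, 1 with the replicate block and 1 to 3 when 1 library was left out. Of the 72 other pathway genes 5 were called higher, 2 with the replicate block and 2 to 6 when 1 library was left out, and 2 were called lower, 0 with the replicate block, 0 with scaling by library totals and 0 to 2 when 1 library was left out. Scaling by library totals split the calls over all genes into 289 higher and 132 lower, where TMM gave 192 and 166. The replicate numbers did not pair the libraries: the deviations of same-numbered libraries from their group means correlated at -0.23, -0.077 and -0.49 over genes, and no library correlated best with its own number. Gpd1 kept its call in all 13 alternatives, and Plpp3 in all but the replicate block and the 2 left-out libraries named with it. Both genes were selected on this contrast in these same libraries, so their calls remain a description. Signs turned for Gpam, to a log2 fold change of 0.068 with scaling by library totals and over a range of -0.22 to 0.064 when 1 library was left out (0.064 without control replicate 3), and for Plpp1, over a range of -0.017 to 0.47 (-0.017 without Pex5-deficient replicate 3). Depth limits genes without reads, since 3 counts stand for 0.155 to 0.225 CPM.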
